A study of Sus scrofa with 28 samples.

Results

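The muscle creatine kinase gene CKM is represented by 29 of the 4608 probes of a pig muscle cDNA array, the probes whose platform annotation gives CKM as the only gene symbol. They are named here by the last 4 digits of their identifiers, and the choice used no measured value. RNA from the semimembranosus, a ham muscle, was compared between 7 normal pigs, whose meat had a low lightness value L*, and 7 pigs with destructured meat, a pale defect with a high L*. The groups were formed by this meat measurement, and breed, age, sex and slaughter conditions are not given in the sources used here. Each pig had 1 nylon array, hybridised with cDNA carrying radioactive phosphorus, that holds every probe in a left and a right part. The pig is the replicate, and both parts were averaged.

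Creatine kinase moves a phosphate group between phosphocreatine and ADP, which holds the ATP level of a contracting fibre while phosphocreatine lasts. The CKM product is the cytosolic muscle isoform, placed in part at the M-band of the sarcomere and beside the calcium pump of the sarcoplasmic reticulum, and CKMT2 encodes the mitochondrial isoform of muscle. The enzyme is most plentiful in fast glycolytic fibres, and after slaughter phosphocreatine is spent before the muscle turns to glycolysis for ATP.

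No probe listed for CKM passed the comparison of destructured with normal muscle. The 29 differences ran from -0.66 to 0.51 on the log2 scale, 12 above 0 and 17 below, with a median of -0.03 where all probes had -0.02. Neither the majority nor the sign of the median held without the right part of 1 array, described in the next paragraph: 13 probes were then below 0 and the median was 0.04, beside -0.0066 for all probes. The probes also did not share a level or a pattern across pigs. They ranged from percentile 10.6 to percentile 97.3 of the array in brightness, and their mean correlation with each other over the 14 pigs was -0.0035. Each is therefore called a probe listed for CKM, and no single value stands for the gene. Names were joined to values by probe identifier, and whether the annotation names each spot correctly was not tested, a limit that holds for every gene named here. In whole muscle, fewer fibres of a type and less RNA per fibre cannot be told apart.

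One array part stood apart. Over all probes, the left and right parts of the same array correlated at 0.868 or more in 13 pigs and at 0.380 in normal replicate 3. Its right part, called the discordant part, departs from the other arrays, and differences that move with it are given with and without it. The array medians before scaling on the log2 scale averaged 1.31 ± 0.306 for the 7 normal and 1.52 ± 0.161 for the 7 destructured pigs (SD), a difference of 0.22 (exact two-sided permutation test, p = 0.128). The labels give 1 pig number to both normal replicate 2 and destructured replicate 3, and nothing says whether it was 1 animal. Without both, no CKM probe passed and 28 of the 29 kept the sign of their difference. Without the discordant part no CKM probe passed either, and 21 of the 29 kept their sign. The depth of an array has no count, so the precision rests on the number of pigs and on the spread between pigs and between array parts.

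The levels of the probes listed for CKM spread as widely as those of the whole array. Mean log2 intensity over the 14 pigs ran from -0.07 for probe 8816 to 4.69 for probe 5944, with a median of 1.54 against 1.43 for all 4608 probes. The standard deviation of the mean level was 1.33 among the CKM probes and 1.38 among all probes. On the array, 10 CKM probes lay in the brightest 25% and 9 in the dimmest 25%, and the middle one stood at percentile 53.9.

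Probe 5944 was the brightest, at percentile 97.3. It had a deposited intensity from 2.03 to 71.97 over the 28 array parts, with a median of 26.1. Next came probe 8222 at percentile 91.5 (mean log2 intensity 3.55) and probe 7502 at percentile 88.9 (3.33). At the other end stood probes 8816, 7986 (-0.05) and 5794 (0.06). Their deposited intensities had medians of 0.887, 0.926 and 0.969. Signal over background is not given, so it is unknown how far these dim probes lie above the membrane.

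Probes that lie next to each other in the table did not always share a level either. Probes 5804 and 5806, separated by 1 other probe, had mean log2 intensities of 2.96 and 0.16. Probes 5070 and 5072, also separated by 1, had 2.46 and 2.26, and the adjacent probes 8793 and 8794 had 0.19 and 0.08. The first pair differed in level by more than the quartiles of all probes do, and the others were close.

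Other genes with many probes showed the same breadth. The standard deviation of the mean level was 1.45 over the 29 probes listed for TNNC2, the fast troponin C gene, 1.09 over the 34 for MYLPF, a fast myosin light chain gene, and 1.17 over the 22 for GAPDH, a glycolytic enzyme. Their median percentiles were 46.3, 48.5 and 50.7. How much DNA each spot held, which was checked in a first hybridisation of the arrays, was not used here, and its part in the spread of levels was not tested.

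**Figure D1:**
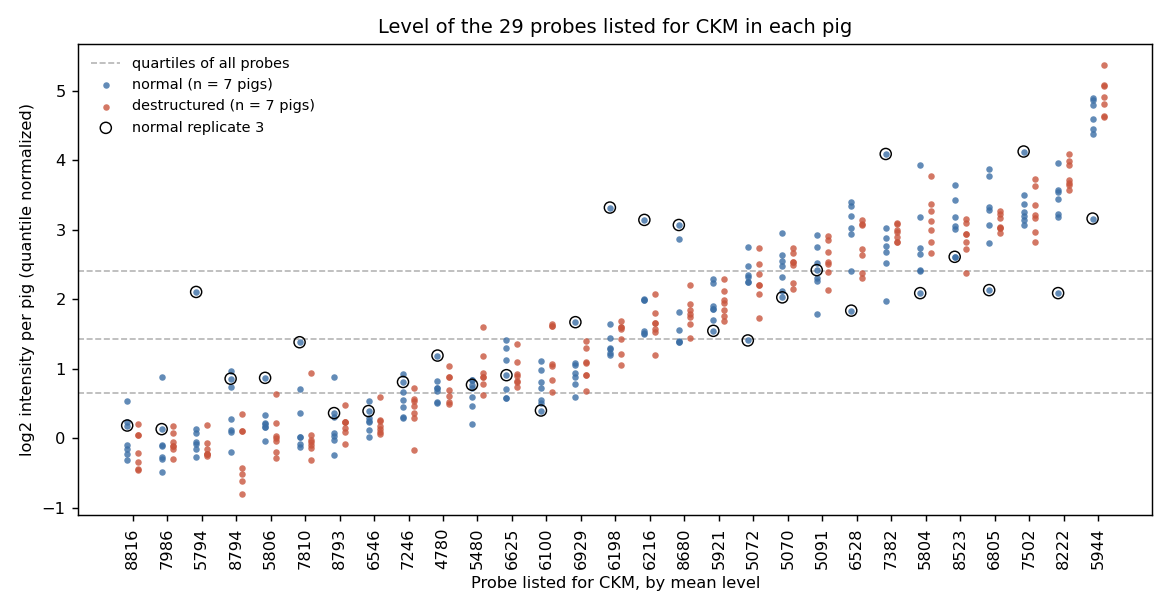
Quantile-normalized log2 intensity (y axis) of the 29 probes listed for CKM (x axis, dim to bright), with a point for each of the 7 normal (blue) and 7 destructured pigs (red), a black ring around normal replicate 3 and dashed lines at the quartiles of all 4608 probes (0.65, 1.43 and 2.41). The probes cover the range from -0.07 to 4.69 in mean level, both groups overlap at every probe, and normal replicate 3 lies far from the other normal pigs at several, such as 5794 and 5944.

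Within an array the CKM spots were read alike in both parts, apart from normal replicate 3. Over the 29 probes the left and right parts correlated at 0.894 to 0.978 in the other 13 pigs (median 0.954), across probes, which are not independent replicates. The standard deviation between parts was 0.216 to 0.489 on the log2 scale in these 13 pigs, with a median of 0.309. The order of the CKM probes by brightness was thus repeated from part to part.

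In normal replicate 3 the same correlation was 0.128 and the standard deviation between parts was 1.43. Its parts differed by more than 1 on the log2 scale at 20 of the 29 CKM probes, and in the other 13 pigs together at 16 of 377 values. For the brightest probe, 5944, the left part gave 4.78 and the right part 1.54. For the dim probe 5794 it was the reverse, -0.02 on the left and 4.24 on the right. The left-part values of both probes lie among those of the other normal pigs and the right-part values do not.

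**Figure D2:**
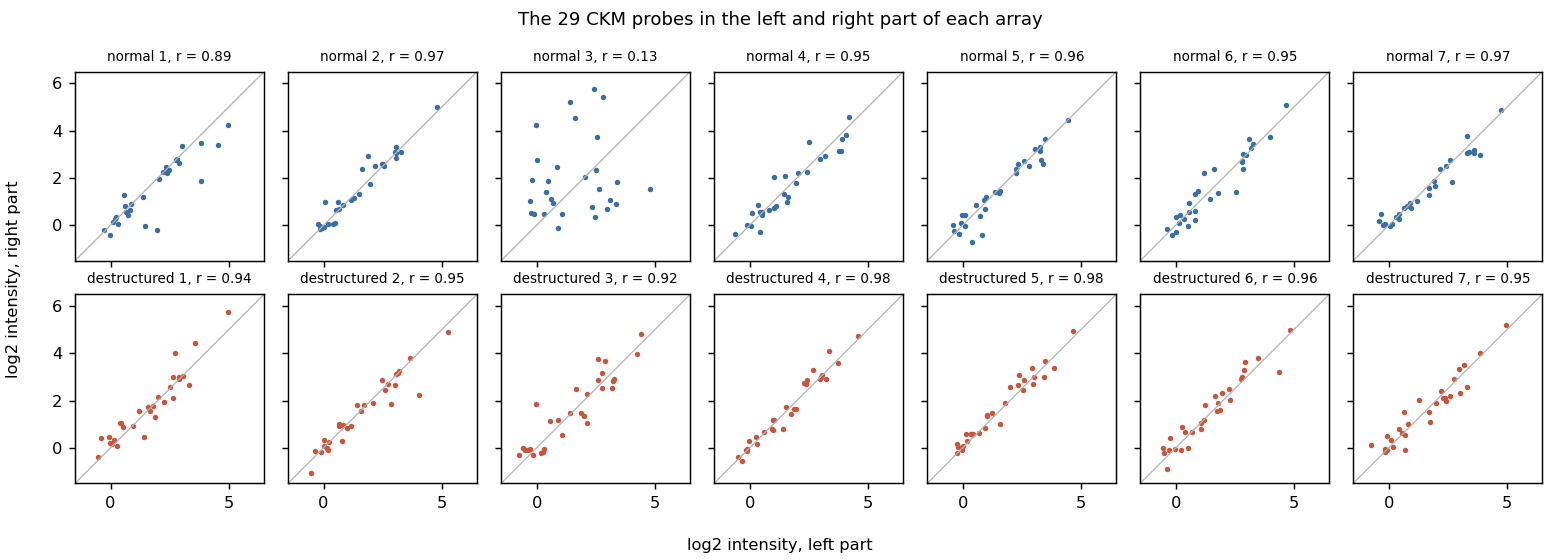
Left-part (x axis) against right-part (y axis) log2 intensity of the 29 probes listed for CKM, 1 panel per pig, normal in blue above and destructured in red below, with the line of equality in grey and Pearson's r over the 29 probes. In 13 pigs the points follow the line, with r from 0.894 to 0.978, and in normal replicate 3 they scatter, with r = 0.128.

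Across pigs, the differences seen in the left part were repeated in the right part only for some probes. For each CKM probe the left values of the 14 pigs were set against the right values. The correlation had a median of 0.172, from -0.279 for probe 7502 to 0.705 for probe 6100, and exceeded 0.5 for 7 of 29 probes (24.1%) where 14.6% of all probes did so. With normal replicate 3 left out the median was 0.375 for CKM and 0.269 for all probes, with 7 of 29 (24.1%) and 24.6% above 0.5. For most CKM probes, then, a pig that was high in one part was only weakly so in the other. The median standard deviation between parts was 0.455 over all pigs and 0.285 without that pig, beside 0.385 and 0.302 over all probes.

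Destructured muscle was then compared with normal muscle, the comparison the study was built for, to ask whether RNA levels go with the meat defect. With limma and Benjamini-Hochberg adjustment over all 4608 probes, 0 of the 29 CKM probes passed an adjusted p of 0.05, where 30 probes of the table did (0.651%). The smallest adjusted p was 0.161, and it belonged to probe 8794. At an unadjusted p under 0.05 stood 4 CKM probes with higher values in destructured muscle (13.8% of the 29, against 8.4% of all probes) and 1 with lower values (3.45%, against 4.64%). The groups overlapped at all 29 CKM probes, and were apart at 1.28% of all probes.

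Probe 8794 had the lowest values in destructured muscle relative to normal. Normal pigs ran from -0.20 to 0.96 with a median of 0.27 on the log2 scale, and destructured pigs from -0.80 to 0.35 with a median of -0.43. In destructured pigs 4 values lay below every normal pig, and the other 3 lay within the normal range. The means were 0.41 ± 0.447 and -0.25 ± 0.438 (SD, n = 7 each), a log2 fold change of -0.66 (SE 0.22, adjusted p = 0.161 by limma). With the discordant part left out, it was -0.51 (SE 0.21, adjusted p = 0.221). This probe is dim, at percentile 13.2 of the array, and its neighbour in the table, probe 8793, which is also dim and listed for CKM, had a log2 fold change of -0.01, and of 0.08 without the discordant part.

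Probe 8222, the second brightest, was at 2.09 to 3.96 in normal pigs (median 3.45) and at 3.57 to 4.10 in destructured pigs (median 3.71). All 7 destructured pigs lay above the normal mean, and 5 of them lay within the normal range. Its log2 fold change was 0.51 (SE 0.22, adjusted p = 0.301 by limma), a 1.43-fold difference with the higher level in destructured muscle. The lowest normal value, 2.09, was that of replicate 3, and the next was 3.18. Without the discordant part the log2 fold change was 0.36 (SE 0.14, adjusted p = 0.190).

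Probe 5944 is the brightest, and its difference was of similar size. Normal pigs ran from 3.16 to 4.89 (median 4.60) and destructured pigs from 4.62 to 5.37 (median 4.91), with 4 destructured pigs above every normal one. The log2 fold change was 0.48 (SE 0.23, adjusted p = 0.380 by limma). The normal value of 3.16 again came from replicate 3, and without the discordant part the normal mean went from 4.45 ± 0.603 to 4.67 ± 0.205 (SD, n = 7). The log2 fold change was then 0.25 (SE 0.13, adjusted p = 0.388 by limma). For this probe and for 8222, normal replicate 3 set the lowest normal value.

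Probes 6100 and 5480 lie lower, at percentiles 33.3 and 28.5, and had positive differences too. Probe 6100 was at 0.40 to 1.11 in normal pigs (median 0.73) and at 0.66 to 1.65 in destructured pigs (median 1.07), a log2 fold change of 0.49 (SE 0.18, adjusted p = 0.213 by limma). Probe 5480 was at 0.21 to 0.84 in normal pigs (median 0.72) and at 0.62 to 1.60 in destructured pigs (median 0.88), a log2 fold change of 0.35 (SE 0.15, adjusted p = 0.340 by limma). For both, 6 of the 7 destructured pigs lay above the normal mean, with overlap between the groups. Without the discordant part, they stood at 0.41 and 0.31.

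The next most negative probes after 8794 were 5794 (-0.39, SE 0.28) and 6216 (-0.31, SE 0.22). Normal replicate 3 was the highest normal pig for both, at 2.11 and 3.14, with the next at 0.13 and 2.00. When the discordant part was dropped, the log2 fold changes were -0.09 (SE 0.10) and -0.22 (SE 0.16). The bright probe 7502 was at -0.11 (SE 0.18), and at 0.08 without that part. The 2 dimmest probes were at -0.19 (8816, SE 0.16) and -0.03 (7986, SE 0.17).

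The 95% interval of the log2 fold change from the moderated fit had a half-width of 0.252 to 0.588 over the CKM probes, with a median of 0.373. It held 0 for 24 of the 29 probes, before any adjustment for the number of probes. It lay within 1 on the log2 scale, which is 2-fold, in both directions for 28 probes, and the exception was probe 8794. A value that misses the threshold does not show that both groups are alike.

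**Figure D3:**
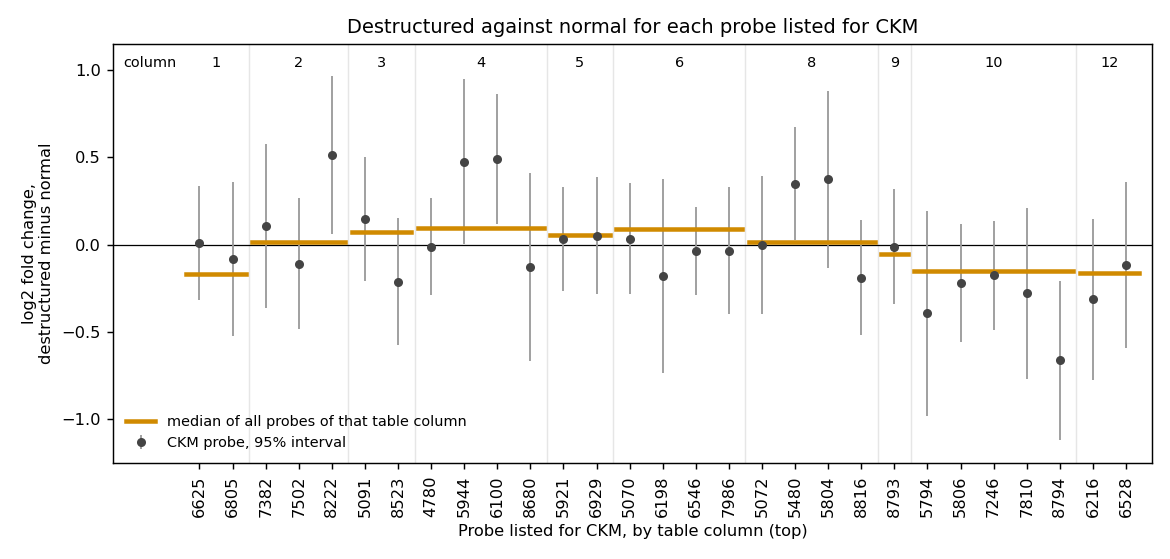
Log2 fold change, destructured minus normal (y axis), of each probe listed for CKM (x axis), with its 95% interval from limma over 7 pigs per group. Probes are ordered by table column (numbers at the top), and orange lines mark the median of all probes of that column. Values run from -0.66 (8794) to 0.51 (8222), and all 5 probes in column 10 lie below 0, as does the median of that column.

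The sign of the CKM differences varied with where a probe stands in the table, as it did for all probes. The table repeats a pattern of 72 positions, which can be laid out as 6 rows of 12 columns. In columns 2 to 7 the differences were negative for 7 of 15 CKM probes (46.7%) and for 35.7% of all probes there. In the other columns they were negative for 10 of 14 CKM probes (71.4%) and for 71.7% of all probes. In column 10 all 5 CKM probes were negative, with a median of -0.28, and so were 78.9% of all probes of that column, whose median was -0.15.

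With the median deviation of each position removed from every array part, 4 of the 5 CKM probes in column 10 stayed below 0, with a median of -0.08. Over all 29 probes 16 were then negative, and the median was -0.03. Probe 8794 was at -0.55 (SE 0.21, adjusted p = 0.310 by limma) and probe 8222 at 0.43 (SE 0.23, adjusted p = 0.552). With the discordant part left out as well, probe 8523 had the smallest adjusted p of the set, 0.133, with a log2 fold change of -0.44 (SE 0.13). In the comparison of all array parts probe 8523 was at -0.21 (SE 0.17). Probe 5944 was at 0.25 (SE 0.17) with positions alone removed and at 0.10 (SE 0.12) with both changes. Probes 8794 and 8222 were at -0.46 (SE 0.21) and 0.24 (SE 0.13) with both changes. Whether membrane position accounts for any CKM difference was not tested.

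The sign varied with brightness too. Of the 15 CKM probes above the array's median level 7 had negative differences (46.7%, against 46.3% of all such probes), and of the 14 below it 10 did (71.4%, against 61.1%). On the deposited scale, with no scaling of the arrays, the median CKM difference was 0.21 and that of all probes 0.21.

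Normal pigs varied more than destructured pigs at 24 of the 29 CKM probes, and at 3410 of all 4608 probes. The median standard deviation between pigs was 0.387 in normal and 0.263 in destructured muscle, beside 0.352 and 0.237 over all probes. Without the discordant part the CKM medians were 0.300 and 0.259. The normal group then had the larger spread at 15 of 29 CKM probes and at 2807 of all 4608 probes. Averaged over the CKM probes, each pig's deviation from the probe means lay between -0.10 (destructured replicate 6) and 0.16 (normal replicate 3). The other 6 normal pigs lay from -0.09 to 0.05 and the destructured pigs from -0.10 to 0.09, so the groups overlapped.

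Probes listed for CKM did not follow one another across pigs. Over the 406 pairs of CKM probes, Pearson's r across the 14 pigs averaged -0.0035 (median -0.04) and ran from -0.83 to 0.92. The mean over all pairs of the 4608 probes was 0.00056. Among the CKM pairs 56 (13.8%) were above 0.5 and 54 (13.3%) below -0.5, beside 8.67% and 8.45% of all pairs. With the discordant part left out, these counts were 29 (7.14%) and 15 (3.69%), beside 6.17% and 5.91%, and the mean was 0.0014. The pairs share pigs and arrays, and these values are descriptive.

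The most extreme pairs depended on that array part. Probes 5794 and 6198 correlated at 0.921 (Spearman's rho 0.459), and at 0.178 without the discordant part. Probes 5794 and 5944 correlated at -0.83, and at -0.0014 without it. Probes 4780 and 6198 correlated at 0.806 (rho 0.807) and held 0.741 without it. The highest r without the part was 0.873, for probes 7986 and 8680, and the lowest was -0.70, for probes 6528 and 8222. Of the pairs above 0.5 with all parts, 16 were also above 0.5 without that one, and of those below -0.5 it was 7.

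Neighbouring CKM probes differed as well. Probes 5804 and 5806 went in opposite directions across pigs (r = -0.63, and -0.51 without the discordant part). Probes 5070 and 5072 went together (0.703, and 0.444 without it), and so did 8793 and 8794 (0.455 and 0.426). In the same table column 35 pairs had a mean r of 0.059, and in different columns 371 pairs had -0.0094.

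The mean r between probes of 1 gene was also near 0 for the other genes with many probes. It was 0.0085 for TNNC2, 0.022 for MYLPF and 0.0043 for GAPDH. With the discordant part left out, these were 0.027, -0.013 and 0.020. No test of a difference between these genes and CKM was made.

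**Figure D4:**
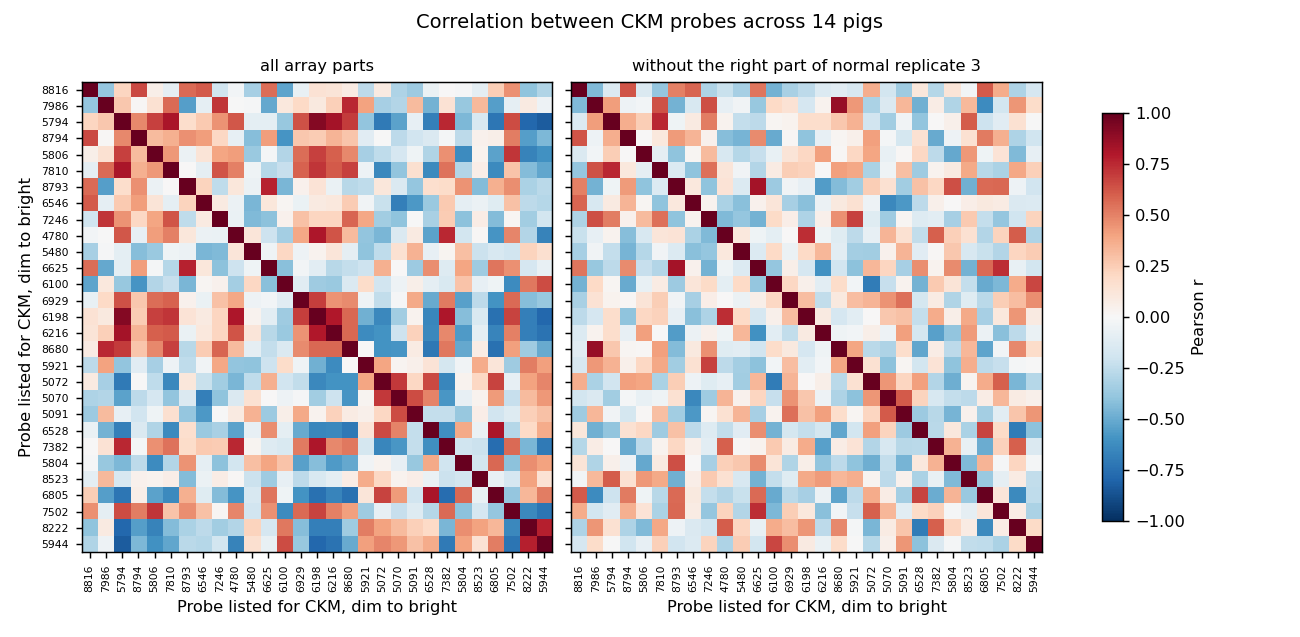
Pearson's r (colour, red above 0 and blue below) between each pair of the 29 probes listed for CKM, ordered dim to bright on both axes, over the log2 intensities of 14 pigs, with all array parts (left panel) and without the discordant part (right panel). Strong positive and negative values are common in the left panel and are fewer in the right panel, and neither panel is red throughout (mean r -0.0035 and 0.0014).

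The genes with the most similar pattern differed between the brightest CKM probe and the mean of all CKM probes. Each of the 210 other named genes was represented by its brightest probe and set against the brightest CKM probe, 5944, over the 14 pigs. The closest were NDUFA4, a subunit of the respiratory chain (r = 0.921, rho 0.697), PSP-I, a seminal plasma protein gene (0.892, rho 0.688), the actin gene ACTB (0.868, rho 0.508), ATP5O, a subunit of ATP synthase (0.859, rho 0.675), and SMPX, a small muscle protein (0.855, rho 0.530). All 5 lie in table columns 2 to 7, as does probe 5944. These columns hold 2304 of the 4608 probes, with a median level of 1.79 against 1.14 in the other columns. When the discordant part was dropped, the correlations were 0.681, 0.460, 0.228, 0.722 and 0.325 in the same order.

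Against the mean of the 29 probe-centred CKM profiles the closest were TNNI3, a troponin I gene (0.814), TPM4, a tropomyosin (0.722), PRL, the prolactin gene (0.709), IDH3B of the citric acid cycle (0.704) and MYL1, a myosin light chain (0.667). With the discordant part left out, these were 0.233, 0.390, 0.561, 0.390 and 0.221. With normal replicate 3 left out altogether, they were 0.678, 0.406, 0.631, 0.355 and 0.262. No gene is in both lists. The values are descriptions over 14 pigs, and all 10 were lower without the discordant part.

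Few other genes of the phosphocreatine and adenylate system have a named probe. Of a list of 23 gene symbols for creatine kinase isoforms, creatine synthesis and uptake, adenylate enzymes, nucleotide carriers, membrane channels, ATP synthase, the sodium pump and myoglobin, 3 were measured, with 4 probes. The list was written with earlier results of these data known. Of its 4 probes 1 passed, with higher values in destructured muscle, where 0.651% of all probes passed. It is listed for VDAC1, which encodes a mitochondrial outer membrane channel, with means of 3.62 ± 0.423 in normal and 4.40 ± 0.145 in destructured pigs (SD, n = 7 each). Its log2 fold change was 0.78 (SE 0.17, adjusted p = 0.0402 by limma), and it was 0.66 (adjusted p = 0.00774) without the discordant part and 0.58 (adjusted p = 0.0779) with position medians removed. With both changes it was 0.51 (adjusted p = 0.0332 by limma).

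CKMT2, the mitochondrial creatine kinase of muscle, has 2 listed probes, with log2 fold changes of -0.18 (SE 0.12, probe 4713) and -0.03 (SE 0.13, probe 6556). Neither passed. Probe 4713 is dim, at percentile 6.71, and probe 6556 stands at percentile 64.2. AMPD1, which deaminates AMP in muscle, was at 0.23 (SE 0.16). With position medians removed these 3 probes were at -0.07, -0.07 and 0.10. The median of the 4 probes was 0.097, beside -0.02 for all probes.

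A second list held 20 genes of the enzymes and motors that use or make ATP near creatine kinase, and 8 were measured, by 49 probes. With all array parts none passed, where 0.651% of all probes did. Of the 49 probes 22 were above 0 and 27 below, and the median was -0.03. The smallest p belonged to a GAPDH probe (6958) at 0.69 (SE 0.18, adjusted p = 0.0744 by limma), then to a probe (5503) of the slow myosin heavy chain gene MYH7 at 0.56 (SE 0.16, adjusted p = 0.111), then to a probe (8074) of the phosphofructokinase gene PFKM at -0.31 (SE 0.15, adjusted p = 0.385). The GAPDH probe passed without the discordant part (0.63, adjusted p = 0.0402 by limma) and with positions removed as well (0.77, adjusted p = 0.0450), but not with positions alone removed (0.83, adjusted p = 0.0876). The PFKM probe was at -0.20 without the discordant part. The other probes of these genes ran from -0.33 to 0.37 for GAPDH and from -0.19 to 0.11 for MYH7. The other PFKM probes were at 0.41 (5130, percentile 99.8) and -0.36 (7526, percentile 91.0), and at 0.03 and -0.18 without the discordant part. The fast myosin heavy chain gene MYH1 had 5 probes, from -0.15 to 0.21 (-0.05 to 0.15 without the discordant part), and MYH2 had 1, at 0.28 (SE 0.14).

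Markers of skeletal muscle and of other cells were described as well, and their values do not measure the purity of the tissue. The 122 probes of 8 measured muscle genes, CKM among them, stood at percentiles from 1.63 to 99.4 with a median of 49.7, so as a set they stood in the middle of the array. With all array parts none of these probes passed, where 0.651% of all probes did. The smallest p belonged to a probe (7658) for TNNI2, a fast troponin I gene, at 0.45 (SE 0.13, adjusted p = 0.0967 by limma). It stands at percentile 85.5, and without the discordant part it was at 0.39 (adjusted p = 0.0563). The other TNNI2 probes ran from -0.62 to 0.26. Then came a probe (8542) for TNNT3, the fast troponin T gene, at -0.42 (SE 0.12, adjusted p = 0.104 by limma). It passed without the discordant part (-0.44, adjusted p = 0.0320), but not with positions removed as well (-0.30, adjusted p = 0.270). This TNNT3 probe is dim, at percentile 4.34, and the other TNNT3 probes ran from -0.37 to 0.42. The summed linear intensity of the 122 probes ran from 550.5 to 657.9 in normal and from 611.5 to 671.6 in destructured pigs. The adipocyte markers FABP4 and PPARG (2 of 4 measured) summed to 7.98 to 14.9 in normal and 13.3 to 15.5 in destructured pigs, with log2 fold changes of 0.28 and 0.064. Without the discordant part these were 0.17 and 0.0087, and with positions removed as well 0.025 and -0.09.

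The fibroblast markers FN1, MGP and MMP2 (3 of 7) summed to 14.4 to 31.5 in normal and 11.9 to 19.9 in destructured pigs, at -0.34, -0.58 and -0.14. Without the discordant part they were at -0.33, -0.29 and 0.03, so the sign of MMP2 turned, and with positions alone removed MMP2 was at 0.16. The immune markers CD74 and CXCL12 (2 of 3) summed to 6.94 to 11.8 and 6.95 to 11.0, and the endothelial marker PECAM1 (1 of 3) was at 0.694 to 1.08 and 0.818 to 1.14. None of these adipocyte, fibroblast, immune and endothelial probes passed, with or without the discordant part, none was listed at 0, and no blood or nerve marker was measured. The part of other cell types in the CKM values was not tested.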

How the data were processed

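Spot intensities of 33P-labelled cDNA were read from phosphor images with BZscan, per the labels' protocols. The deposited values are intensities on a linear scale, 28 columns of 4608 probes from 0.0393 to 443.3. The sources used here do not say how the authors corrected background, scaled the values or used the first hybridisation. Gene symbols came from the platform annotation, which gives 1 symbol to 509 probes (211 symbols). All 29 CKM entries were found in the RefSeq gene table by their Entrez identifier.

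Intensities were taken to log2, quantile normalized over the 28 columns, and the left and right values of each pig were averaged. Groups were compared with limma 3.58.1 (lmFit, eBayes) in R 4.3.3 with no covariate and no filter on dim probes. P-values were adjusted by Benjamini-Hochberg over the whole table, with a threshold of 0.05. The number of arrays limits the precision. The fit was checked on simulated data. Figures used matplotlib 3.10.9.

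The members, lists, tests and alternatives were chosen with earlier results of these data known. The CKM probes named are the 5 with the smallest p, the 3 brightest, the 3 dimmest and the 3 with the largest difference each way. Lists name the probes that passed, or else the 3 with the smallest p. CKMT2, AMPD1, MYH1, MYH2 and the other probes given for a named gene fall outside this rule. So do the CKM probes named as neighbours, in correlated pairs, as 8523 or for a pig that stands apart. All of these, TNNT3 and TNNI2 were chosen after their values were seen. MYLPF and GAPDH served for comparison, and TNNC2 was added for its number of probes. Genes of like pattern are the 5 with the highest r. Alternatives covered scaling, dim probes, array parts, the variance model, position and each pig left out.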

Additional observations from a re-analysis of the deposited data

Results flagged for a closer look

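Single pigs that lay far from the rest of their group were sought by Dixon's criterion, which sets the distance from the closest other pig against the range over the group of 7. Of the 58 groups formed by 29 CKM probes and both conditions 11 met this. The nominal rate of about 1 in 20 is for independent groups, and these probes share pigs and arrays. How often probes of the whole array meet the criterion was not examined. Normal replicate 3 was the pig in all 8 normal CKM groups that met it. It was low for probes 5072 (1.41), 5944 (3.16) and 8222 (2.09), and high for probes 5794 (2.11), 5806 (0.87), 6198 (3.32), 6216 (3.14) and 7502 (4.13), in log2 intensity. For these 8 probes the nearest normal pig stood at 2.25, 4.39, 3.18, 0.13, 0.33, 1.64, 2.00 and 3.50 in the same order.

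The same pig was singled out by its array parts over the CKM probes. Their correlation was 0.128, with the nearest normal pig at 0.894, and the standard deviation between them was 1.43, with the nearest at 0.489. In destructured muscle, replicate 1 was high for the dim probes 5794 (0.19) and 7810 (0.93), where the nearest pig had -0.07 and 0.045, and replicate 7 was high for probe 6546 (0.59, nearest 0.26).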

How the results depend on the processing

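No CKM probe passed in any of the 28 alternatives. Probes 8794, 6100, 8222, 5480, 5944 and 6216 kept their direction wherever they were measured, with adjusted p no lower than 0.0813. That lowest value was probe 6100's with the array part number as replicate block and the pig as random block, where 107 probes of the table were called. The part numbers mark the parts of 1 array, not pairs of pigs. With the discordant part left out and positions removed, probes 5944 and 6216 were at 0.10 (SE 0.12) and -0.05 (SE 0.17).

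The count over the table, 30, moved to 2 on the deposited scale, 6 with median centring, 49 and 56 without the dimmest 25% and 50%, 13 from the left and 1 from the right part, 53 with an offset of 1, 6 with trend and robust variances, 129 with array weights, 3 without the shared pig number, 135 with the right part of the normal replicate 3 array left out and 8 with position medians removed. Leaving out 1 pig gave 2 (without destructured replicate 3) to 84 (without normal replicate 3).

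On the deposited scale the median CKM difference was 0.21, 7 probes were negative and the mean correlation between CKM probes was 0.290. With median centring that correlation was 0.019. The mean over all pairs of probes was not taken for either scale, and the cause of the change in correlation was not tested. Negative CKM probes numbered 8 of 20 and 7 of 15 without the dimmest 25% and 50%, where fewer were measured. Leaving out 1 pig gave a median of -0.058 to -0.0032, 15 to 19 negative probes and a correlation of -0.012 to 0.0040.

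Of all 29 CKM probes, 19 kept their sign on the deposited scale, 20 with array weights, and 21 without normal replicate 3, without its right part, and without that part with positions removed. Without its right part 13 were negative, the median was 0.04, and probes 4780 (0.09), 5072 (-0.15), 5921 (-0.08), 6198 (0.09), 8680 (0.08) and 8793 (0.08) turned, besides 7502 and 7986. Among the 10 probes chosen by rule, signs turned for 4, none of them called. The cause was not tested. Probe 7502 stood at 0.0100 on the deposited scale, 0.079 with array weights and 0.078 with the right part of the normal replicate 3 array left out, and between -0.18 and 0.017 with 1 pig left out. Probe 7986 stood at 0.23 on the deposited scale, 0.0097 with median centring, 0.076 in the right part and with array weights, and 0.022 without that right part, and between -0.11 and 0.12 with 1 pig left out. Probe 8816 stood at 0.10 on the deposited scale. Probe 5794 stood at 0.015 with that part left out and positions removed.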
